A study of Homo sapiens with 3 samples.

Results

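HES1, HES6, ATOH1, DLL1, DLL4, JAG1, NOTCH1, SOX4, SPDEF and GFI1, the genes through which Notch signalling and its downstream transcription factors divide gut epithelium into absorptive and secretory cells, were followed across single cells of a Caco-2/HT29 co-culture. The 10 genes were taken by symbol from the 33538 features of the deposited matrices, and each of them had at least 1 UMI (a uniquely tagged transcript molecule) in every library. Caco-2 and HT29 are established lines from human colorectal adenocarcinomas. Caco-2 cells become enterocyte-like when kept confluent, and HT29 cultures hold a minority of mucus-producing cells.

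Caco-2 cells at passage 8 and HT29 cells at passage 13 were seeded at 9 to 1 into the apical chamber of Transwells, grown without microbes and harvested on day 23 for 10x Genomics 3' single-cell RNA sequencing. Control 1 and control 2 were untreated wells. In the LPS well, 1 ng/ml of lipopolysaccharide from Escherichia coli O111:B4 was present for 24 h from day 22. Each library is 1 well, and no repeat of the seeding is described in the sources used here. Between the lines, p-values measure how far the difference within a library varied over the 3 libraries. Cell classes were fitted together, all those named with at least 10 cells in each library. Between classes, p-values therefore also draw on how the other classes varied over the libraries. For LPS they measure the spread between the control wells, and the single LPS library had to be assumed to vary as the controls do. Values of the 3 libraries are given in the order control 1, control 2 and LPS.

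Notch signalling passes between neighbouring cells. A ligand on one cell (DLL1, DLL4 or JAG1) binds a receptor such as NOTCH1 on the next, γ-secretase releases the receptor's intracellular part, and this part joins the DNA-binding protein RBPJ to switch on targets such as HES1. HES1 is a repressor, and in gut epithelium it keeps down ATOH1, the basic helix-loop-helix factor at the head of the secretory lineage. A cell that escapes Notch raises ATOH1, and ATOH1 in turn drives Delta-like ligands and the secretory factors SPDEF and GFI1, so that the neighbours of a secretory cell tend to stay absorptive. SPDEF matures goblet and Paneth cells, GFI1 favours goblet and Paneth over enteroendocrine fate, HES6 counters HES1, and SOX4 is an HMG-box factor active in progenitors and in enteroendocrine and tuft cell formation.

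The ligands lie on chromosomes 6 (DLL1, ENSG00000198719, chr6:170282206-170306565, minus strand), 15 (DLL4, ENSG00000128917, chr15:40929340-40939073, plus strand) and 20 (JAG1, ENSG00000101384, chr20:10637684-10673999, minus strand) of GRCh38. The receptor gene NOTCH1 (ENSG00000148400) spans chr9:136494433-136546048 on the minus strand. Of the HES repressors, HES1 (ENSG00000114315) spans chr3:194136148-194138732 on the plus strand and HES6 (ENSG00000144485) chr2:238238267-238240662 on the minus strand. The secretory factors were ATOH1 (ENSG00000172238, chr4:93828753-93830964, plus strand), SPDEF (ENSG00000124664, chr6:34537802-34556333, minus strand), GFI1 (ENSG00000162676, chr1:92473043-92486925, minus strand) and SOX4 (ENSG00000124766, chr6:21593751-21598619, plus strand). All are protein-coding. The annotation places genes of the opposite strand over parts of HES6, SOX4, DLL1, JAG1 and NOTCH1, and the strand setting of the counting is not given in the sources used here.

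The 250 bases before the transcription start are shown for HES1, HES6, ATOH1 and SOX4, because these windows can hold the letters through which RBPJ (TGGGAA), HES repressors (the N-box CACNAG) and basic helix-loop-helix activators (the E-box CAGCTG) are known to act. They are RefSeq sequences of GRCh38.p14, written 5' to 3' along the gene, with every match on either strand in capitals. A match on the other strand appears as its reverse complement.
HES1 (chr3:194135898-194136147, plus strand): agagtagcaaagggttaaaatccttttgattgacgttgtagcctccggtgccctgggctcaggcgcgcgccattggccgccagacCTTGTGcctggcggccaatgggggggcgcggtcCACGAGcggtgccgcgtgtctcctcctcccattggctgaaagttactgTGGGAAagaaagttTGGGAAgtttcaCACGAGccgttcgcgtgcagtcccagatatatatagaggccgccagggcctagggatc
HES6 (chr2:238240039-238240288, minus strand): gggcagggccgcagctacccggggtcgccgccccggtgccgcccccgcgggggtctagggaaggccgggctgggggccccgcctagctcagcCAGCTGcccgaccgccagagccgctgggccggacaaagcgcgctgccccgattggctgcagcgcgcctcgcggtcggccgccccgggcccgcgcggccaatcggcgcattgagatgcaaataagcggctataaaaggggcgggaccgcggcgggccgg
ATOH1 (chr4:93828503-93828752, plus strand): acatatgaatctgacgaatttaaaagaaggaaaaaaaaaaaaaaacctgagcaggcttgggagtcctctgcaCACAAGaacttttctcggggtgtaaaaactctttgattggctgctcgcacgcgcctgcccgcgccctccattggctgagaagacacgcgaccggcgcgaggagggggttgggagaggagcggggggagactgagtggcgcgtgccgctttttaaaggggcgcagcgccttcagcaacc
SOX4 (chr6:21593501-21593750, plus strand): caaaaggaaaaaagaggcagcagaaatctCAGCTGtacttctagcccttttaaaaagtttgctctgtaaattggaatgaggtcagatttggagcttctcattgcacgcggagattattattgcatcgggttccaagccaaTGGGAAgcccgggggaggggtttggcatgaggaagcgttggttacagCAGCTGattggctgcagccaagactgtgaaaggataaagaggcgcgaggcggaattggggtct
The HES1 window held 2 copies of TGGGAA, starting 84 and 70 bases before the start, and 3 N-boxes starting 165, 132 and 58 bases before it. Among 35116 windows of this kind, 20.8% held TGGGAA at least once and 2.90% at least 2 times. An N-box was held at least once by 32.0% and at least 2 times by 6.32%. HES6 had 1 E-box at 158 bases, ATOH1 had 1 N-box at 178 bases, and SOX4 had E-boxes at 221 and 63 bases and 1 TGGGAA at 110 bases before the start. An E-box of these letters occurred in 13.99% of all windows, and at least 2 times in 1.27%. SPDEF had 1 TGGGAA at 24 bases. GFI1 had 1 TGGGAA at 115 bases and 1 N-box at 49 bases before the start, in different windows. The windows of NOTCH1, DLL4 and JAG1 held no match, and 9 of the 10 genes had a window in the table. The HES6 window was GC-rich at 77.2%, against a median of 58% over all windows, and a longer annotated HES6 transcript starts upstream of it. These matches are letters in a window, not measured binding.

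After filtering, 4633, 4989 and 4850 cells were kept of 5811, 6495 and 6838 barcodes, with medians of 5447, 4103 and 3573 UMIs per cell. Pairs of libraries shared only 9 to 11 barcodes. By genes that mark the lines, 11831 cells were Caco-2-line, 2511 were HT29-line and 130 lay between them, and HT29-line cells made up 14.2%, 19.9% and 17.7% of the libraries. Clusters were named from marker genes with the 10 members and the pathway lists left out of the clustering features. Named classes were goblet-like (149 cells, led by FCGBP and MUC2), 2 enteroendocrine-like clusters (57 cells of HT29 origin led by SST and GCG, and 208 of Caco-2 origin led by CLPS and INSM1), other HT29-type (2376), stem-like (737), transit-amplifying-like (4141), enterocyte-like (2036) and placental-gene (69) cells. Summed goblet markers reached 19394 to 23377 CPM (a gene's UMIs per 1000000 UMIs) in the goblet-like class and 155 to 6004 in other clusters, with 1 of 10 markers at 0 in the class. Summed enteroendocrine markers reached 926 to 16988 CPM in their classes, with 2 to 5 of 12 markers at 0, and 26.0 to 169 elsewhere. Of 4 Paneth cell markers, the defensin genes DEFA5 and DEFA6 stayed at or under 0.134 CPM over whole libraries, while ITLN2 was at 1.76 to 2.81 and PLA2G2A, which is also on the stem list, at 44.2 to 63.0. The 4 tuft cell markers stayed at or under 1.82 CPM. Of 5 stromal and immune markers, PTPRC and COL3A1 were at or under 0.167 CPM, VIM and PECAM1 were at 1.54 to 3.61, and COL1A1 at 7.82 to 10.5, beside 622 to 670 for the epithelial gene EPCAM. A further 5 clusters met no class's marker threshold and stayed unnamed. The largest, led by S100A9 and ANKRD62, held 2653 cells (19.9%, 17.3% and 17.9% of cells). The others held 706, 525, 487 and 328 cells. Among them were a cluster led by ALB and AFP (3.32%, 3.83% and 3.71% of cells) and a cluster carrying genes of both lines (1.68%, 4.09% and 0.948% of cells).

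CPM values were taken from UMIs summed over all cells of a group in 1 library. Tags of a 3' kit are not per length, so levels are compared between cells for a given gene, not between genes. Tests were edgeR quasi-likelihood fits on these sums across all genes, with library as a term between cell groups and with p-values adjusted by Benjamini-Hochberg. A call is an adjusted p under 0.05. Since the cell classes were drawn from these same cells, p-values between classes are smaller than independent samples would give.

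HES1 and SOX4 were broadly expressed, whereas ATOH1 and GFI1 were nearly absent. HES1 gave 437, 503 and 591 CPM over whole libraries and a UMI in 74.1% to 76.2% of cells. SOX4 gave 468, 509 and 442 CPM, with a UMI in 60.4% to 69.1% of cells. HES6 followed at 60.5, 69.0 and 63.2 CPM (15.7% to 19.1% of cells). Thus the repressor HES1 was found in most cells of the culture, and its antagonist HES6 in a minority.

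JAG1 was the ligand found in most cells, at 27.9, 29.5 and 35.3 CPM and in 12.3% to 14.7% of cells. DLL1 gave 6.42, 7.66 and 7.22 CPM (2.68% to 3.63% of cells) and DLL4 3.64, 3.65 and 3.54 CPM (1.48% to 2.20%). NOTCH1 gave 8.06, 9.51 and 8.84 CPM (3.57% to 4.73%). Each of these genes was thus sampled in a small part of the cells that may carry it, and the share of cells with a UMI follows depth.

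SPDEF stood at 9.93, 12.7 and 13.95 CPM over whole libraries. ATOH1 had 61 UMIs in the 14472 cells (0.836, 0.615 and 1.03 CPM) and GFI1 had 25 (0.368, 0.246 and 0.393 CPM). GFI1 was under the filter on low counts in every comparison, so 9 of the 10 genes were tested throughout and no statement on a change of GFI1 is possible at this depth.

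Transcripts of the secretory regulators were enriched in a few secretory-like cells, although most of these transcripts lay in other cells. The goblet- and enteroendocrine-like classes together held 414 cells, 2.86% of the cells and 2.06% of all UMIs. They carried 39.3% of ATOH1 UMIs (24 of 61), 35.4% of HES6, 16.6% of SOX4 and 16.3% of DLL1. For SPDEF the share was 18.97%, and 87.2% of its UMIs lay in the HT29 line as a whole. HES1 and JAG1 were below the all-UMI share, with 1.78% and 0.925% of their UMIs in these classes.

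**Figure D1:**
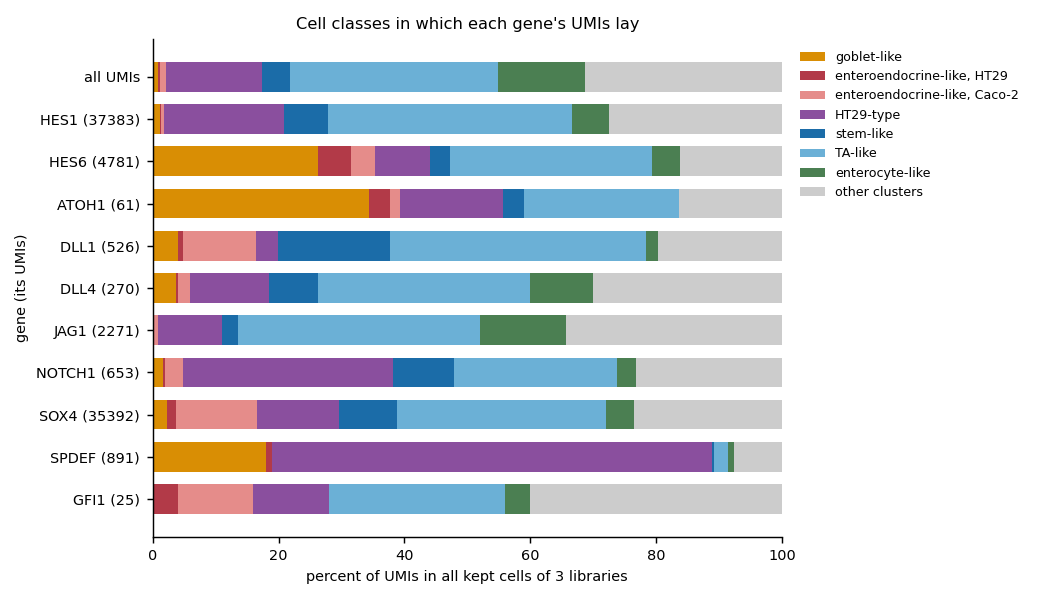
Share of each gene's UMIs (percent, stacked) that fell in each cell class, summed over 3 libraries, with the share of all UMIs as the first bar. The goblet- and enteroendocrine-like classes held 2.06% of all UMIs but 39.3% of ATOH1 and 35.4% of HES6 UMIs, and 1.78% of HES1 UMIs.

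The first comparison asks how the regulators differ between the lines within the same well. HT29-line cells had far more SPDEF, and more HES6, ATOH1, NOTCH1 and HES1, whereas Caco-2-line cells had more of the ligands DLL1 and JAG1. SOX4 and DLL4 gave no call. Of the 9 genes tested, 5 were called higher and 2 lower in the HT29 line, where 35.2% of 14048 genes were called higher and 37.9% lower. The 5 include SPDEF and ATOH1, which were tested only because their HT29-line sums passed the filter on low counts.

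SPDEF, the goblet maturation factor, stood at 65.4, 63.3 and 69.9 CPM in HT29-line cells and at 0.819, 1.51 and 1.75 CPM in Caco-2-line cells. The lines did not overlap in any library, and the log2 fold change was 5.59 ± 0.16 (SE), a 48.1-fold difference (edgeR adjusted p = 5.7e-16). The Caco-2-line sums of SPDEF alone did not meet the filter on low counts, so this call is no independent support. A UMI of SPDEF was seen in 20.5% to 29.0% of HT29-line and 0.505% to 0.686% of Caco-2-line cells.

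Among the ligands, JAG1 was at 16.6, 19.3 and 21.6 CPM in HT29-line and 29.8, 31.8 and 38.2 CPM in Caco-2-line cells, a log2 fold change of -0.86 ± 0.12 (edgeR adjusted p = 2.2e-06). DLL1 was at 4.39, 4.04 and 1.73 CPM against 6.79, 8.50 and 8.19 CPM (log2 fold change -1.23 ± 0.25, edgeR adjusted p = 2.4e-04). Both ligands were lower in HT29-line cells in each library. DLL4 gave 4.63, 2.14 and 4.03 CPM against 3.47, 4.02 and 3.49 CPM (log2 fold change -0.10 ± 0.28, edgeR adjusted p = 0.76), and its ranges overlapped. The receptor went the other way from the ligands DLL1 and JAG1. NOTCH1 was at 21.2, 17.8 and 18.7 CPM in HT29-line and 5.97, 7.74 and 6.68 CPM in Caco-2-line cells (log2 fold change 1.44 ± 0.16, edgeR adjusted p = 9.9e-08).

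HES1, the Notch target, was at 588, 615 and 693 CPM in HT29-line and 414, 482 and 572 CPM in Caco-2-line cells. The ranges of the lines did not overlap, although they came near each other, and the log2 fold change was 0.31 ± 0.07 (edgeR adjusted p = 7.0e-04). SOX4 was at 483, 516 and 449 CPM against 464, 509 and 432 CPM, a log2 fold change of -0.02 ± 0.07 (edgeR adjusted p = 0.81). ATOH1 was at 3.17, 2.38 and 2.01 CPM against 0.468, 0.151 and 0.722 CPM (log2 fold change 2.49 ± 0.47, edgeR adjusted p = 1.0e-04), on 30 and 27 UMIs. Its Caco-2-line sums were under the filter on low counts, so this call is no independent support.

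**Figure D2:**
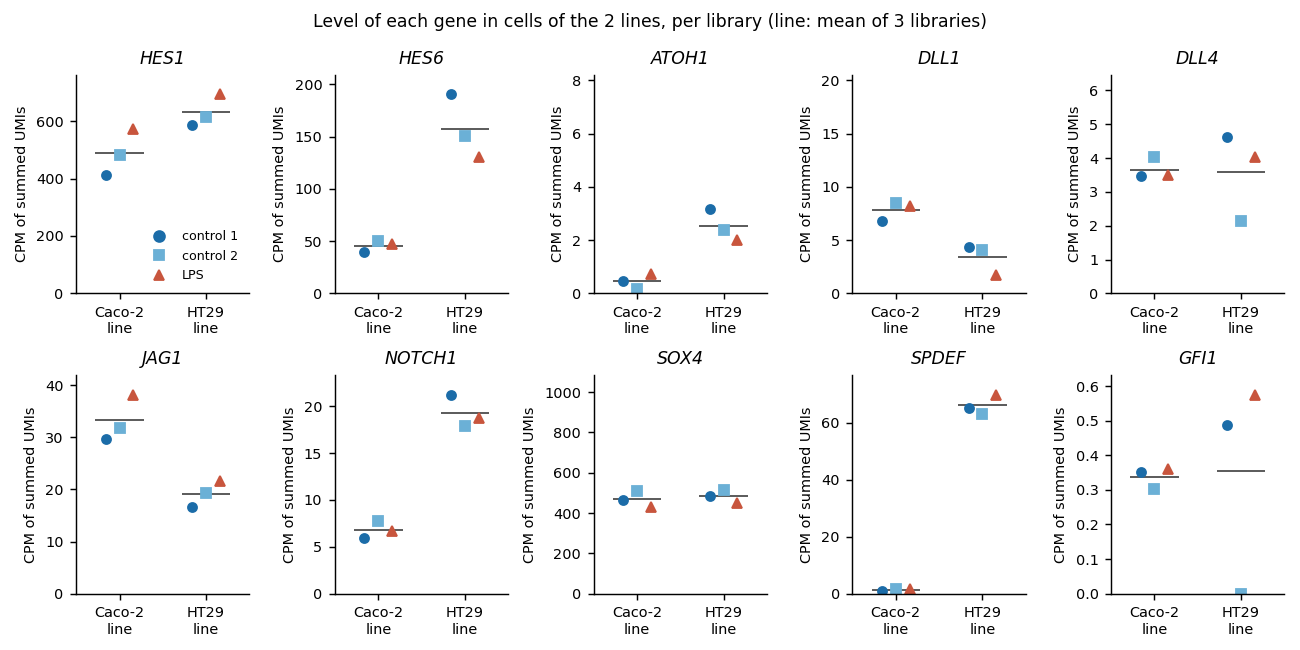
CPM of each gene in Caco-2-line and HT29-line cells (y axis, linear, one panel per gene); points are the 3 libraries and the bar is their mean. SPDEF stood at 63.3 to 69.9 CPM in HT29-line cells and at 0.819 to 1.75 CPM in Caco-2-line cells, and HES1 ranges were close, at 588 to 693 and 414 to 572 CPM.

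The higher HES6 of the HT29 line lay in its few secretory-like cells. HES6 was at 190, 151 and 131 CPM in HT29-line and 39.2, 50.4 and 47.1 CPM in Caco-2-line cells (log2 fold change 1.72 ± 0.12, edgeR adjusted p = 1.7e-10). Of the HT29-line HES6 UMIs, 77.8% lay in 198 goblet- or enteroendocrine-like cells, 7.89% of the line, where HES6 reached 1973, 1644 and 1623 CPM. The remaining HT29-line cells had 38.4, 41.3 and 33.1 CPM and the remaining Caco-2-line cells 37.3, 47.6 and 46.1 CPM, so that HT29-line cells were slightly higher in control 1 and lower in the other libraries. Without the goblet- and enteroendocrine-like cells of both lines the log2 fold change of HES6 turned to -0.27 ± 0.11 (edgeR adjusted p = 0.034). ATOH1 was similarly gathered, with 20 of its 30 HT29-line UMIs (66.7%) in these cells, as was DLL1 (56.1%). HES1 (6.01%), NOTCH1 (5.29%) and JAG1 (2.23%) were not. SPDEF differed again, since these cells held 20.6% of its HT29-line UMIs and the rest was spread over the line.

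Of 57 further Notch pathway genes (other receptors and ligands, their trafficking, glycosylation and cleavage, the nuclear complex and targets), 48 were tested, with 19 higher and 17 lower in HT29-line cells and a median log2 fold change of 0.15. The background was 73.1% of all genes called, with a median of -0.05. Highest by fold were the target HES5 (4.85, edgeR adjusted p = 5.0e-07), the Fringe glycosyltransferases LFNG (3.01) and MFNG (1.16) and the γ-secretase subunit PSENEN (2.25). LFNG was at 14.6, 12.1 and 17.3 CPM against 1.60, 1.41 and 2.23 CPM. Lowest were DTX3 (-3.87), the receptor NOTCH3 (-3.73, edgeR adjusted p = 2.7e-11), the ubiquitin ligase NEURL1B (-2.66) and the ligand DLL3 (-2.29). HES5 and MFNG passed the filter on low counts only through their HT29-line sums. DTX3, NOTCH3, NEURL1B and DLL3 passed it only through their Caco-2-line sums, so the calls of these genes are no independent support. NOTCH3 stood at 0.732, 1.90 and 2.88 CPM in HT29-line and 18.3, 22.6 and 27.7 CPM in Caco-2-line cells. NOTCH1 was therefore higher in HT29-line and NOTCH3 in Caco-2-line cells. Besides NOTCH1, 2 receptors were tested, with 1 called higher and 1, NOTCH3, lower in HT29-line cells.

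A list of 20 further secretory fate factors had 14 tested, of which 5 were higher and 5 lower in the HT29 line (median log2 fold change 0.04). This is 71.4% called, near the 73.1% of all genes, so the list did not stand apart in its count. The higher ones included CREB3L1 (2.56), XBP1 (1.41), KLF4 (0.93) and FOXA3 (0.88), factors of secretory and goblet cells. XBP1, which runs the unfolded protein response of secretory cells, stood at 390, 407 and 420 CPM against 149, 139 and 149 CPM. The lower ones included GFI1B (-3.30), CBFA2T3 (-1.59) and FOXA1 (-1.24). GFI1B and CBFA2T3 passed the filter on low counts only through their Caco-2-line sums, so these calls are no independent support.

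Within the HT29 cells, goblet-like cells were set against the other HT29-type cells. HES6, ATOH1, DLL1, SPDEF and SOX4 were higher in goblet-like cells, HES6 by 46.0-fold, and DLL4 was called higher on 10 UMIs. HES1, NOTCH1 and JAG1 gave no call. Thus 6 of the 9 genes tested were called higher and 0 lower, where 3.07% of 12982 genes were called higher and 5.81% lower. The 6 include ATOH1, which was tested only because its goblet-like sums passed the filter on low counts. HES6 itself was among the 10 leading genes of the goblet-like cluster although it was kept out of the features.

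ATOH1, the head of the lineage, was at 38.1, 20.1 and 32.3 CPM in goblet-like cells (10, 5 and 6 UMIs) and at 0.747, 1.24 and 0.589 CPM in other HT29-type cells. All 3 libraries were far apart, with a log2 fold change of 4.96 ± 0.63 (edgeR adjusted p = 3.2e-09). ATOH1 passed the filter on low counts only through the goblet-like sums, where it was high, so this call is no independent support. The comparisons with enterocyte-like cells share this filter, and ATOH1 entered them through the same sums. A UMI of ATOH1 was seen in 7 of 42, 5 of 56 and 5 of 51 goblet-like cells (16.7%, 8.93% and 9.80%) and in 0.323%, 0.529% and 0.247% of HT29-type cells. The exact (Clopper-Pearson) 95% intervals of the goblet-like shares were 6.97% to 31.4%, 2.96% to 19.6% and 3.26% to 21.4%. Median depths were 5013, 3720 and 3012 UMIs in goblet-like and 5523, 3744 and 3641 in HT29-type cells, so the classes with the higher shares were not the deeper ones.

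HES6 was at 2173, 1573 and 1567 CPM against 38.4, 38.1 and 32.4 CPM (log2 fold change 5.52 ± 0.13, edgeR adjusted p = 1.8e-48). It was seen in 85.7%, 89.3% and 86.3% of goblet-like and 12.6%, 6.98% and 8.40% of HT29-type cells. With each cell thinned to 1500 UMIs, which left no cell out, the shares of HES6 were 73.3%, 71.1% and 67.6% against 4.10%, 3.56% and 3.43%. A HES6 UMI was therefore seen in most goblet-like cells and in few other HT29-type cells, and a cell without one may still express HES6.

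SPDEF was at 236, 221 and 237 CPM against 52.8, 51.7 and 59.8 CPM (log2 fold change 2.00 ± 0.17, edgeR adjusted p = 9.9e-16). Thinned shares of cells were 31.7%, 30.3% and 34.5% against 7.91%, 7.53% and 9.33%, and the unthinned share was 0.251% to 0.625% in enterocyte-like cells, the reference for background. SPDEF was thus present in HT29-type cells in general and higher in goblet-like ones. SOX4 was at 1123, 1090 and 1276 CPM against 364, 448 and 391 CPM (log2 fold change 1.44 ± 0.12, edgeR adjusted p = 1.6e-16). GFI1 had 0 UMIs in 42, 56 and 51 goblet-like cells, which allows up to 11.4, 12.1 and 16.2 CPM. The same zeros allow shares of cells with a UMI of up to 7.14%, 5.36% and 5.88%, and say nothing of the share of cells that express GFI1 at a low level.

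Of the ligands, DLL1 was at 30.4, 24.1 and 37.7 CPM in goblet-like cells and 2.74, 1.74 and 0.294 CPM in other HT29-type cells (log2 fold change 4.06 ± 0.55, edgeR adjusted p = 1.8e-08). DLL4 was at 26.6, 8.05 and 5.39 CPM (7, 2 and 1 UMIs) against 3.49, 1.74 and 3.83 CPM, with a log2 fold change of 2.16 ± 0.67 (edgeR adjusted p = 0.027). The DLL4 call rested on few molecules and was lost without control 1 (1.20, edgeR adjusted p = 0.68) and without control 2 (2.20, edgeR adjusted p = 0.070). JAG1 was at 11.4, 8.05 and 0 CPM against 16.9, 20.2 and 24.1 CPM. It was lower in each library, but its log2 fold change of -1.58 ± 0.55 did not pass (edgeR adjusted p = 0.057), and it passed in 5 alternatives.

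The receptor and its target showed no call. NOTCH1 was at 15.2, 12.1 and 21.5 CPM against 20.9, 17.7 and 18.6 CPM (log2 fold change -0.37 ± 0.45, edgeR adjusted p = 0.73). HES1 was at 556, 732 and 609 CPM in goblet-like and 580, 614 and 686 CPM in HT29-type cells, a log2 fold change of -0.07 ± 0.13 (edgeR adjusted p = 0.83). The HES1 ranges overlapped, with goblet-like values below, within and above those of the other HT29-type cells. High ATOH1 and HES6 thus stood beside a HES1 level that gave no call. The sums do not tell whether single cells carried both.

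Cells with ATOH1 also tended to have HES6. Of 51 cells with an ATOH1 UMI, 37 (72.5%) had a HES6 UMI. All 17 of those in the goblet-like class did, where 87.2% of all cells did, and 20 of 34 (58.8%) did among the other cells, where 16.7% did. Outside the goblet-like class, 98 of 587 SPDEF-positive cells (16.7%) also carried HES6, the same share as among all those cells. That background is mostly Caco-2-line cells, whereas 87.2% of SPDEF UMIs lay in the HT29 line. HES6 was seen in a smaller share of HT29-type cells, as given above. The pooled share therefore does not tell whether SPDEF went with HES6 within the HT29 line. Cells are not replicates, and these shares carry no test. They pool libraries, lines and, outside the goblet-like class, all other classes, and depth was not matched.

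The other HT29-type cells were not uniform. In the subcluster led by LCN15, CSPG4 and CXCR4, HES6 was at 74.1 ± 15.5 CPM (SD, n = 3) and SOX4 at 635 ± 12.3 CPM. HES6 was 11.2 to 17.8 and SOX4 229 to 409 CPM on average in the other 3 subclusters, and 8 of the 10 ATOH1 UMIs and 26 of the 34 DLL4 UMIs of HT29-type cells fell in the LCN15 subcluster. HES1 averaged 510 ± 83.8 CPM in these cells, compared with 811 ± 113 CPM for the subcluster led by RARRES2 and CST6. NOTCH1 reached 39.6 ± 6.50 CPM in the subcluster led by AQP1 and PYGB and 14.97 to 18.3 CPM in the rest. SPDEF was even across them, at 52.6 to 60.5 CPM. Since the subclusters came from the same cells, these values are a description.

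Of the further Notch genes, 4 were higher and 4 lower in goblet-like cells among 46 tested, where 8.88% of all genes were called. The higher ones were the ubiquitin ligase NEURL1 (log2 fold change 4.56, edgeR adjusted p = 2.0e-19), DLL3 (2.90), LFNG (2.80, edgeR adjusted p = 3.5e-11) and the target HES5 (2.69). DLL3 was at 7.61, 8.05 and 10.8 CPM and HES5 at 7.61, 12.1 and 32.3 CPM in goblet-like cells, so both calls rested on few UMIs. HES5 also passed the filter on low counts only through the goblet-like sums, so its call is no independent support. NEURL1 was at 129, 60.3 and 118 CPM against 2.49, 5.47 and 4.12 CPM, and LFNG at 64.7, 60.3 and 91.5 CPM against 9.71, 7.46 and 11.8 CPM. The lower ones were DTX4 (-1.84), MAML2 (-1.78), the target HES4 (-0.87) and PSENEN (-0.85). DTX4 was at 11.4, 8.05 and 0 CPM and MAML2 at 11.4, 4.02 and 10.8 CPM in goblet-like cells. Both calls rested on few UMIs. Of 4 listed targets tested, 1 was thus higher and 1 lower. In the secretory list 5 of 14 were higher and 0 lower, with a median log2 fold change of 0.56 against -0.11 over all genes. They included CREB3L1 (1.90), FOXA3 (1.64), FOXA2 (1.51) and CBFA2T2 (1.03).

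The enteroendocrine-like cells were set against enterocyte-like cells, the main mature class of the culture. SOX4, HES6 and DLL1 were far higher in enteroendocrine-like cells, SOX4 by 23.1-fold, and NOTCH1 was higher, while JAG1 was lower. Enterocyte-like cells are of the Caco-2 line, so for the HT29 enteroendocrine-like cluster line and class cannot be told apart. Calls for SPDEF (higher), ATOH1 (higher) and HES1 (lower) depended on the processing, the JAG1 call was lost under total-UMI scaling and the NOTCH1 call with the HT29 cluster alone. In all, 6 of 9 genes were called higher and 2 lower, where 16.7% and 22.2% of all genes were. Enteroendocrine-like cells had fewer UMIs, with medians of 2972, 2276 and 2344 against 5248, 4034 and 3558, and scaling to total UMIs in place of TMM moved the median log2 fold change of all genes from -0.05 to 0.66 and the split of calls from 2163 higher and 2878 lower to 4919 and 1302.

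SOX4 was at 6999, 5968 and 4537 CPM against 169, 141 and 151 CPM (log2 fold change 4.53 ± 0.12, edgeR adjusted p = 1.7e-45). Its level was 7748, 6804 and 5626 CPM in the Caco-2 enteroendocrine-like cluster, where 97.5% to 98.5% of cells had a UMI, and 4458, 2221 and 1539 CPM in the HT29 one. The 2 clusters did not overlap. With 198 cells, 1.67% of the Caco-2 line, Caco-2-line enteroendocrine-like cells held 14.8% of that line's SOX4 UMIs.

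HES6 had the opposite order between the 2 clusters. It was at 243, 269 and 390 CPM in the Caco-2 cluster and 1142, 1787 and 1222 CPM in the HT29 cluster, and at 17.0, 22.4 and 25.4 CPM in enterocyte-like cells (joined clusters, log2 fold change 3.94 ± 0.16, edgeR adjusted p = 9.6e-34). After thinning, HES6 was seen in 30.8% to 32.2% of Caco-2 and 32.8% to 64.3% of HT29 enteroendocrine-like cells, and in 2.11% to 3.15% of enterocyte-like cells.

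DLL1 was at 65.7, 79.3 and 95.5 CPM in enteroendocrine-like and 0.414, 1.05 and 1.93 CPM in enterocyte-like cells (log2 fold change 5.54 ± 0.42, edgeR adjusted p = 2.2e-19). In the Caco-2 cluster it reached 85.1, 82.6 and 130 CPM, its highest level in any named class. JAG1 was at 15.7, 20.6 and 22.5 CPM against 28.6, 31.5 and 31.6 CPM (log2 fold change -1.38 ± 0.33, edgeR adjusted p = 4.4e-04), and with total-UMI scaling its change was -0.66 (edgeR adjusted p = 0.12). The HT29 cluster had 0 JAG1 UMIs, which allows up to 41.3, 48.3 and 63.2 CPM. DLL4 was at 9.39, 8.81 and 0 CPM against 1.86, 3.85 and 2.70 CPM (log2 fold change 0.70 ± 0.76, edgeR adjusted p = 0.50). Of DLL1, JAG1 and DLL4, DLL1 thus had the clear difference, and JAG1 in the Caco-2 cluster (20.3, 25.1 and 30.6 CPM) overlapped its level in enterocyte-like cells.

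NOTCH1 was at 12.5, 35.2 and 22.5 CPM against 1.45, 2.45 and 1.93 CPM (log2 fold change 2.93 ± 0.51, edgeR adjusted p = 1.7e-06), and with the HT29 cluster alone, which had 2 UMIs, the change was 1.64 (edgeR adjusted p = 0.39). HES1 was at 194, 211 and 500 CPM against 190, 222 and 257 CPM. The levels overlapped in CPM, while the TMM-scaled log2 fold change was -0.39 ± 0.15 (edgeR adjusted p = 0.029), turning to 0.32 (edgeR adjusted p = 0.064) with total-UMI scaling. No direction is therefore given for HES1 in enteroendocrine-like cells.

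ATOH1 had 1 UMI in each library in enteroendocrine-like cells and 0 in enterocyte-like cells, whose floors were 0.622, 1.05 and 1.16 CPM. The fit called it higher (edgeR adjusted p = 0.0066), but the call was lost in 3 alternatives and no fold is given on these counts. SPDEF had 0, 6 and 2 UMIs, all in the HT29 cluster (0, 96.6 and 42.2 CPM). Its log2 fold change of 2.69 ± 0.79 (edgeR adjusted p = 0.0040) became 1.35 (edgeR adjusted p = 0.48) without control 2, and the Caco-2 cluster had 0 UMIs.

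Further Notch genes gave 12 higher and 10 lower calls among 46, where 38.8% of all genes were called, with a median log2 fold change of 0.25 against -0.05. The higher ones were led by the ubiquitin ligases NEURL1 (4.94, edgeR adjusted p = 3.1e-24) and NEURL1B (4.05), MFNG (4.71) and DLL3 (3.94, edgeR adjusted p = 2.7e-17). NEURL1B and MFNG passed the filter on low counts only through the enteroendocrine-like sums, so these calls are no independent support. NEURL1 stood at 138, 147 and 140 CPM against 2.49, 3.50 and 2.31 CPM, so this ligand-trafficking gene was high in both secretory-like classes. The lower ones were led by NEURL3 (-2.62), DTX4 (-1.91), FURIN (-1.77) and the ligand JAG2 (-1.52). In enteroendocrine-like cells NEURL3 was at 0, 8.81 and 0 CPM and FURIN at 3.13, 5.87 and 11.2 CPM. JAG2 was at 3.13, 8.81 and 5.62 CPM against 12.4, 8.06 and 10.0 CPM, so its ranges overlapped. The calls of NEURL3, FURIN and JAG2 thus rested on few UMIs. In the secretory list 10 of 14 were higher and 0 lower (median log2 fold change 2.12). NEUROG3, the factor that starts enteroendocrine differentiation, had 28 UMIs against 0. In CPM over the group this is at least 114-fold higher. That bound uses total-UMI scaling, which raised folds in this comparison, and would be smaller with TMM. INSM1 (7.81) and PAX4 (7.51) were also among the highest by fold, with INSM1 at 369, 320 and 180 CPM against 1.04, 0.3504 and 0.771 CPM. INSM1 and PAX4 were also among the leading genes of the Caco-2 cluster, although they were kept out of the features. NEUROG3, INSM1 and PAX4 passed the filter on low counts only through the enteroendocrine-like sums, so their calls are no independent support.

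**Figure D3:**
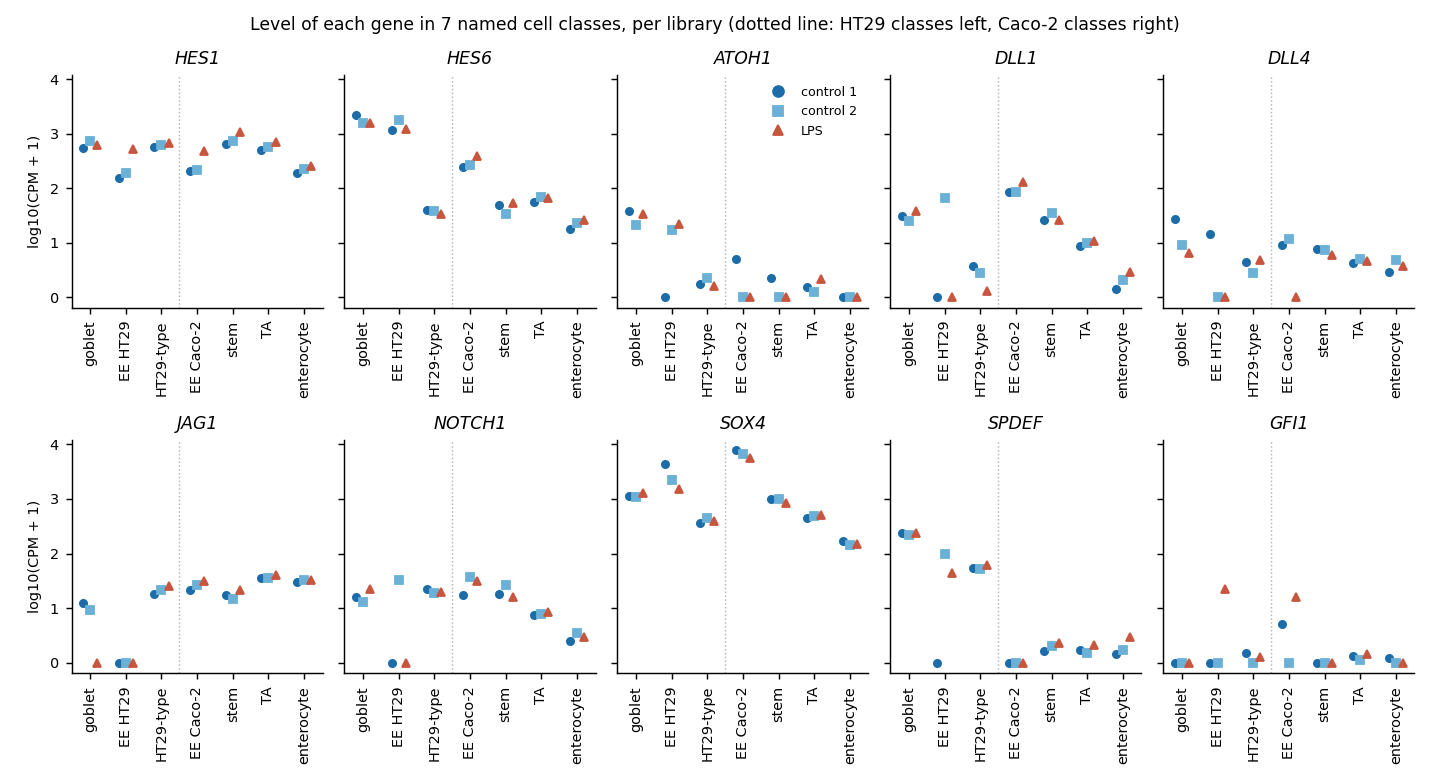
Level of each gene as log10(CPM + 1) in 7 named classes (one panel per gene); points are the 3 libraries, and the dotted line separates HT29 classes on the left from Caco-2 classes on the right. HES6 was highest in goblet-like and HT29 enteroendocrine-like cells (means of 1771 and 1384 CPM) and SOX4 in Caco-2 enteroendocrine-like cells (6726 CPM).

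Stem- and transit-amplifying-like cells of the Caco-2 line were joined, called proliferative cells for short, and set against enterocyte-like cells. Summed transit-amplifying markers were 847 to 962 CPM in transit-amplifying-like, 393 to 409 in stem-like and 93.2 to 119 in enterocyte-like cells. The larger transit-amplifying-like cluster (2678 cells) was led by ANKRD1, DKK1 and TAGLN. Unnamed clusters were left out, among them the one led by ALB and AFP at 665 to 815 CPM and others at 340 to 461 and 396 to 493. Stem-like cells did not stand above these clusters, so the short name is a label and not a measure of cell division. HES1, HES6, SOX4, DLL1 and NOTCH1 were all higher in the proliferative cells, by between 2.28-fold for HES1 and 8.84-fold for DLL1. JAG1, DLL4 and SPDEF gave no call. With ATOH1, 6 of 9 genes were called higher and 0 lower, where 27.8% and 29.6% of all genes were. Summed enterocyte markers were 4444 to 12851 CPM in the stem- and transit-amplifying-like classes and 24332 to 26817 in enterocyte-like cells.

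HES1 was at 531, 589 and 745 CPM against 190, 222 and 257 CPM (log2 fold change 1.19 ± 0.11, edgeR adjusted p = 3.7e-16). In thinned cells it was seen in 48.9% to 60.0% of transit-amplifying-like, 55.0% to 72.1% of stem-like and 23.1% to 28.9% of enterocyte-like cells. NOTCH1 was at 7.95, 8.94 and 8.11 CPM against 1.45, 2.45 and 1.93 CPM (log2 fold change 1.85 ± 0.31, edgeR adjusted p = 4.2e-07). The receptor and its target were thus both lower in the enterocyte-like cells, in each library.

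DLL1 was at 10.1, 11.5 and 11.5 CPM against 0.414, 1.05 and 1.93 CPM (log2 fold change 3.14 ± 0.37, edgeR adjusted p = 1.1e-11). JAG1 was at 31.4, 32.3 and 36.7 CPM against 28.6, 31.5 and 31.6 CPM (log2 fold change -0.16 ± 0.12, edgeR adjusted p = 0.26), with a sign that turned to 0.13 under total-UMI scaling. DLL4 gave 3.84, 4.36 and 3.80 CPM (log2 fold change 0.30 ± 0.36, edgeR adjusted p = 0.49). Of these 3 ligands, DLL1 was the one called.

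HES6 was at 53.7, 64.4 and 64.5 CPM against 17.0, 22.4 and 25.4 CPM (log2 fold change 1.24 ± 0.15, edgeR adjusted p = 1.3e-11). SOX4 was at 525, 546 and 536 CPM against 169, 141 and 151 CPM (log2 fold change 1.51 ± 0.11, edgeR adjusted p = 1.7e-20). ATOH1 had 7, 2 and 8 UMIs against 0, and its call was lost in 3 alternatives. In CPM over the group it was at least 2.08-fold higher, a bound with total-UMI scaling that would be smaller with TMM. SPDEF was at or under 1.93 CPM in each library on both sides (log2 fold change -0.44 ± 0.60, edgeR adjusted p = 0.55).

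Among further Notch genes 18 were higher and 13 lower of 46, where 57.4% of all genes were called. POGLUT1 (2.11), NEURL1B (1.95), the corepressor CTBP2 (1.95) and the Notch target NRARP (1.76, edgeR adjusted p = 2.5e-04) led the higher ones. MIB2 (-1.56), the γ-secretase subunit NCSTN (-1.06) and the protease FURIN (-0.99) were among the lower ones. NRARP stood at 4.47, 4.81 and 5.83 CPM against 1.24, 0.701 and 1.54 CPM. Of the secretory list 57.1% were called, near that background, and 5 of 14 were higher, led by FOXA2 (1.25), CREB3L4 (1.06), FOXA1 (1.015) and FOXA3 (0.87). The 3 lower ones were CBFA2T3 (-1.78), KLF4 (-0.95) and CREB3L1 (-0.51), KLF4 being a factor of differentiated gut epithelium.

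**Figure D4:**
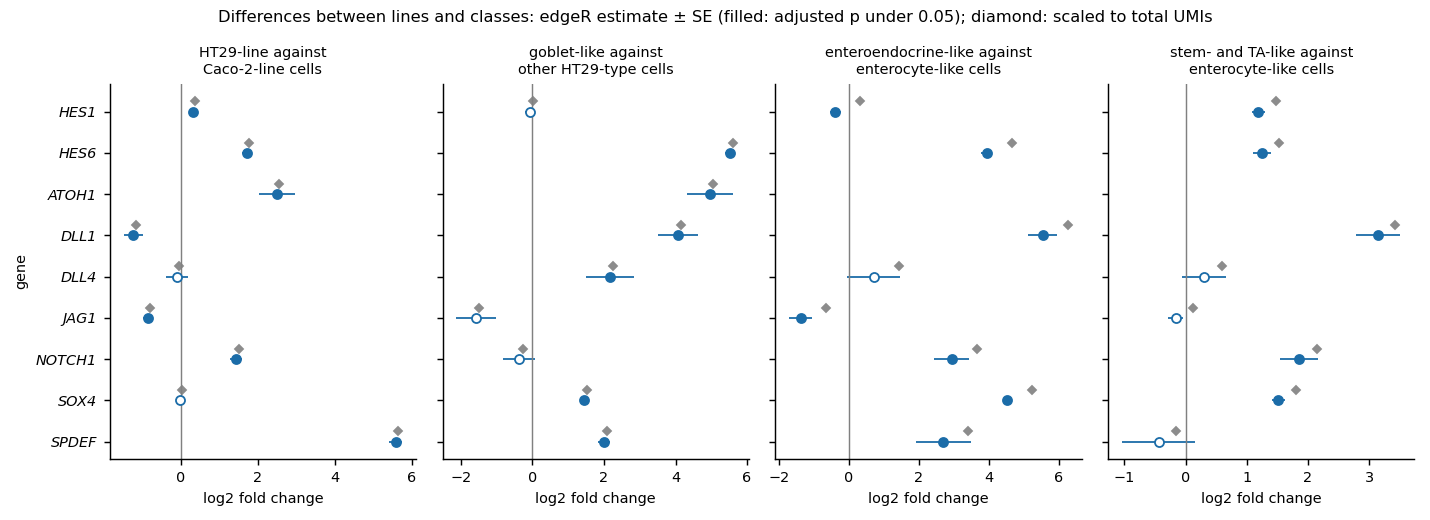
Log2 fold changes of the tested genes (edgeR, TMM scaling, ± SE) in the 4 comparisons between cell groups, one panel each; filled points have an adjusted p under 0.05 and grey diamonds show scaling to total UMIs. ATOH1 is left out of the enteroendocrine and proliferative panels because enterocyte-like cells had 0 UMIs. SOX4 reached 4.53 and HES6 3.94 in enteroendocrine-like cells, and HES1 there lay at -0.39 with TMM and 0.32 with total UMIs.

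Placed in order over 7 named classes, HES1 was highest in stem-like cells (816 ± 215 CPM, SD, n = 3), followed by goblet-like (632 ± 90.6), HT29-type (627 ± 54.3) and transit-amplifying-like cells (598 ± 102), which overlapped one another. Caco-2 enteroendocrine-like (304 ± 161), HT29 enteroendocrine-like (290 ± 206) and enterocyte-like cells (223 ± 33.6) came next and overlapped in turn. The range of the Caco-2 enteroendocrine-like class lay below that of transit-amplifying-like cells, while the HT29 one reached 527 CPM and overlapped it. HES6 was highest in goblet-like (1771 ± 348) and HT29 enteroendocrine-like cells (1384 ± 351), which overlapped, and lowest in enterocyte-like cells (21.6 ± 4.28). SOX4 fell from Caco-2 enteroendocrine-like cells (6726 ± 1063) through HT29 enteroendocrine-like (2739 ± 1527) and goblet-like (1163 ± 99.4) to enterocyte-like cells (154 ± 14.4), and only transit-amplifying-like and HT29-type cells overlapped along the way.

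DLL1 and NOTCH1 were both highest in Caco-2 enteroendocrine-like cells (99.3 ± 26.8 and 27.6 ± 10.2 CPM) and lowest in enterocyte-like cells (1.13 ± 0.759 and 1.94 ± 0.501). For NOTCH1 the upper classes all overlapped their neighbours, while for DLL1 the Caco-2 enteroendocrine-like class stood clear of goblet-like (30.8 ± 6.78) and stem-like cells (28.1 ± 5.35). JAG1 had another order, highest in transit-amplifying-like (35.7 ± 2.51) and enterocyte-like cells (30.6 ± 1.72) and low in goblet-like cells (6.49 ± 5.87). The DLL4 levels overlapped between every pair of neighbours, from 13.4 ± 11.6 down to 2.81 ± 0.999 CPM. GFI1 had at most 7 UMIs in any named class.

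Over 15 class and library sums, HES6 and ATOH1 had a Pearson r of 0.94 in log2(CPM + 1), SOX4 and DLL1 0.91, and HES6 and DLL1 0.86. HES6 and HES1 had 0.20, and ATOH1 and JAG1 had -0.77. Among 9541 genes, those most like HES6 included REP15 (0.97) and SLC36A4 (0.96), and those most like ATOH1 were ROBO2 (0.95), REP15 (0.95) and PSTPIP1 (0.95). REP15 was itself one of the goblet markers that named the class. SOX4 was nearest to PROX1 (0.99), UBXN4 (0.98) and FOXA2 (0.98), DLL1 to MAGEF1 (0.97), MDK (0.95) and FOXA2 (0.95), and HES1 to EIF2S2 (0.95), RPF2 (0.94) and NAA50 (0.93). SPDEF was nearest to DERL1 (0.97), NOTCH1 to MESD (0.96), JAG1 to CREG1 (0.96) and DLL4 to CUL7 (0.89). The sums share libraries, depth and the class structure, so these values describe the pattern.

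The last comparison asks whether LPS moved any of the regulators within 24 h. No member was called over whole libraries, in either line, or in the difference of the LPS effect between lines. The fits had 1 LPS library and 1 residual degree of freedom. Genes called were 19 of 16144 over whole libraries (0.118%, with 770 at an unadjusted p under 0.05), 3 of 15525 in Caco-2-line cells (0.0193%, 973 unadjusted) and 26 of 12091 in HT29-line cells (0.215%, 348 unadjusted). For the difference between lines it was 24 of 14048 (0.171%, 546 unadjusted).

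HES1 was highest in the LPS library over all cells, with 591 CPM against 437 and 503 in the controls (log2 fold change 0.25 ± 0.16, edgeR adjusted p = 0.94). In Caco-2-line cells the change was 0.28 ± 0.15 (edgeR adjusted p = 0.79) and in HT29-line cells 0.15 ± 0.23 (edgeR adjusted p = 1.00). The LPS library was the highest for HES1 in 6 of 7 named classes, goblet-like cells being the exception, for example 490 CPM against 207 and 215 in Caco-2 enteroendocrine-like and 1059 against 654 and 734 in stem-like cells. However, control 2 also exceeded control 1 in all 7, and median depth fell from control 1 to control 2 to LPS. The Caco-2 enteroendocrine-like cells also differed in markers between libraries. Their summed enteroendocrine markers were 2221, 2025 and 926 CPM, and their summed transit-amplifying markers 72.9, 61.0 and 375 CPM. The part of depth and of cell make-up in the HES1 order was not tested.

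No other member passed either. Over whole libraries, SOX4 had a log2 fold change of -0.22 ± 0.16 (edgeR adjusted p = 0.95), JAG1 0.22 ± 0.15 (edgeR adjusted p = 0.94) and SPDEF 0.23 ± 0.19 (edgeR adjusted p = 0.96). In HT29-line cells HES6 was at 190, 151 and 131 CPM (log2 fold change -0.44 ± 0.25) and DLL1 at 4.39, 4.04 and 1.73 CPM (-1.33 ± 0.74), both with an edgeR adjusted p of 1.00. The difference of these changes from those in the Caco-2 line was -0.44 ± 0.21 for HES6 and -1.37 ± 0.66 for DLL1, each with an edgeR unadjusted p of 0.038 and an adjusted p of 1. Neither passed. Of the further Notch genes 0 of 52 tested over whole libraries were called. In the secretory list PAX4 alone was called, at -2.18 ± 0.42 (edgeR adjusted p = 0.041), a call lost with DESeq2 (adjusted p = 1.00), with no doublets removed (edgeR adjusted p = 0.14) and with the cell minimums of control 1 (edgeR adjusted p = 0.71). PAX4 was highest in enteroendocrine-like cells, at 247, 206 and 67.4 CPM, and their Caco-2 cluster made up 1.45%, 2.02% and 0.825% of the libraries.

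**Figure D5:**
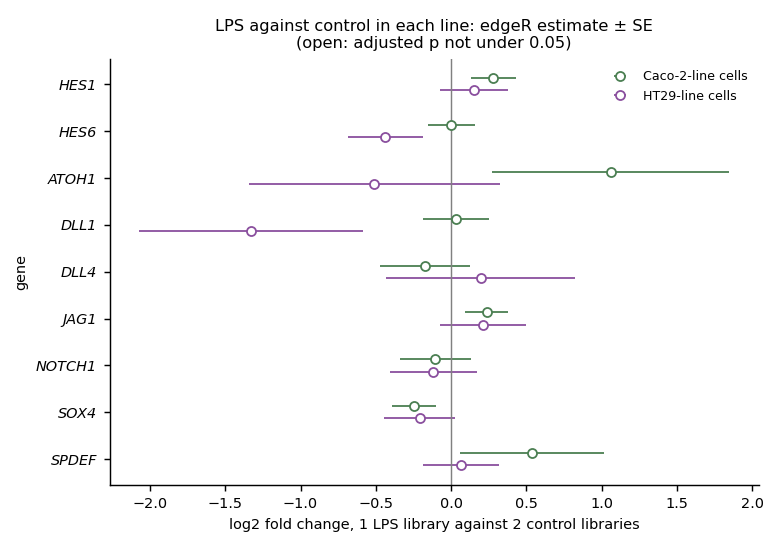
Log2 fold changes of the tested genes with LPS (edgeR, ± SE, 1 LPS against 2 control libraries) in Caco-2-line and HT29-line cells. All points are open because none had an adjusted p under 0.05, and HES1 lay at 0.28 in Caco-2-line and 0.15 in HT29-line cells.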

How the data were processed

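Single cells of 2 control wells and 1 LPS well were sequenced with 10x Genomics 3' chemistry after dead cells had been removed where viability was under 70%. The authors deposited gene-by-cell UMI counts for each library, made with Cell Ranger on GRCh38, and the matrix headers give version 3.1.0. Further settings of the counting are not given in the sources used here.

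Cells with at least 2250 UMIs and 770 genes (control 1) or 1500 UMIs and 700 genes (control 2 and LPS) and at most 20% mitochondrial UMIs were kept. The doublet caller marked only 0, 0 and 1 cells, so the 6% of cells with the highest doublet scores were removed instead (296, 318 and 310 cells). Barcodes held 33893707, 27934953 and 24185467 UMIs before these filters. Cells were clustered as in the study's methods (sctransform 0.4.2 per library, Seurat 5.3.0 anchor integration on 3000 features, 50 components, 15 neighbours, Leiden 0.10.2 at resolution 0.5 with scanpy 1.11.5, then subclustering), with 87 genes, the members and lists, left out of the features. A cluster was named from at least 3 raised markers and a mean log2 fold of at least 0.5, a threshold set after the clusters were seen. Line was assigned from line-marking genes by a mixture model per library (posterior of at least 0.9).

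UMI counts were summed per library and group and tested with edgeR 4.0.16 (quasi-likelihood, TMM, filterByExpr, Benjamini-Hochberg over all genes tested) in R 4.3.3. DESeq2 1.42.0 was an alternative. Scripts were tested on simulated data first. The members and gene lists were chosen with earlier results of these data known. All 10 members are named, with up to 4 list genes per direction and comparison by fold change, and the 3 genes most like each member at 20 CPM or more in a class. Some genes that this rule names are not reported here. Intervals and the limit of a count of 0 (3 counts) cover counting error only.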

Additional observations from a re-analysis of the deposited data

How the results depend on the processing

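Alternatives left call and direction as they were in 122 of 125 values of the members for the lines, 95 of 108 for goblet-like, 108 of 126 for enteroendocrine-like and 102 of 108 for proliferative cells. For LPS these were 69 of 72 over whole libraries, 76 of 81 in Caco-2-line and 79 of 81 in HT29-line cells, and 64 of 72 for the difference. Total-UMI scaling, leaving out the cluster with genes of both lines or the secretory-like cells, and single enteroendocrine-like clusters were added after seeing the data.

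Genes called between goblet-like and HT29-type cells rose from 1153 to 1804 with no doublets removed, and those of enteroendocrine-like cells went from 5041 to 3151 with the HT29 cluster alone. With no doublets removed, the goblet-like cluster held 263 cells and had SST and GCG among its leading genes, so the class differed in make-up. LPS calls over whole libraries (19) were 6 with DESeq2, 37 with total UMIs, 46 without a filter on low counts, 11 with no doublets removed and 4 with the minimums of control 1. In Caco-2-line cells (3) they were 24 with RLE scaling, 13 with total UMIs, 58 without the filter, 1 with control 1 minimums and 7 without the cluster of both lines. In HT29-line cells (26) they were 3 with DESeq2, 0 without the filter (edgeR, 320 at unadjusted p under 0.05) and 50 with control 1 minimums. The difference between lines (24) gave 1 with DESeq2, 12 with RLE, 0 with no doublets removed (edgeR, 383 unadjusted) and 45 with control 1 minimums. Leaving out 1 library gave 9611 to 9772 calls between lines, 788 to 911 for goblet-like, 3703 to 4774 for enteroendocrine-like and 6180 to 6755 for proliferative cells. Calls between goblet-like and HT29-type cells were 399 higher and 754 lower, against 520 and 584 with total UMIs and 578 and 493 with DESeq2. For proliferative cells 3603 and 3845 became 5383 and 2502 with total UMIs, which moved the median log2 fold change of all genes from -0.00 to 0.29. Enteroendocrine-like calls split 2851 and 2353 with DESeq2.

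Signs turned in these cases, and the cause was not tested. Between the lines they were HES6 without secretory-like cells (-0.27), DLL4 without control 2 (0.26, and -0.39 without control 1) and SOX4 with total UMIs (0.045). In goblet-like cells they were HES1 with total UMIs (0.025), without LPS (0.00096, and -0.19 without control 2), in another normalization before clustering (0.045) and with listed genes kept as features (0.023), and NOTCH1 in the last 2 of these (0.37 and 0.61). In enteroendocrine-like cells they were HES1 with total UMIs (0.32) and control 1 minimums (0.030), and SPDEF with no doublets removed (-4.41) and with the Caco-2 cluster alone (-4.86, a fitted value on 0 UMIs). With no doublets removed, the enteroendocrine-like class held only the cluster led by CLPS and INSM1 (194 cells). JAG1 in proliferative cells turned with total UMIs (0.13). For LPS they were DLL1 over whole libraries with total UMIs (0.040) and control 1 minimums (0.063), NOTCH1 with total UMIs (0.013), HES6 in Caco-2-line cells with total UMIs (0.074), control 1 minimums (0.019) and without the cluster of both lines (0.018), SPDEF in HT29-line cells with control 1 minimums (-0.054), and for the difference JAG1 with control 1 minimums (0.16) and SOX4 with no doublets removed (-0.0033) and control 1 minimums (-0.042).

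No paired analysis was possible because the controls and the LPS well share only 1 replicate number, and leaving out a control left the LPS comparison with no residual degrees of freedom. Thinning moved 19 of 20 shares of cells by more than their spread. Depth limits ATOH1, DLL4 and GFI1 most.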
